A study of Mus musculus with 3 samples.

Results

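NK cells and group 1 innate lymphoid cells (ILC1) of the mouse liver were described in 803 cells, out of 42971 kept cells in 2 single-cell libraries. A cell was a member when it held at least 2 UMIs of the NK receptor genes Ncr1, Klrb1c and Klre1 together, where a UMI (unique molecular identifier) stands for 1 captured mRNA molecule. A member had no UMI of Cd3d, Cd3e and Cd3g (chains of the T cell receptor complex), of Cd79a (B cell receptor) or of Siglech (plasmacytoid dendritic cells), and at most 2 UMIs of the Kupffer cell genes Clec4f and Vsig4. Kept cells had 200 to 4000 genes and at most 25% of their UMIs from mitochondrial genes. The members were thus chosen by the UMIs of these genes in the same cells, so the levels of these genes are a description and support nothing.

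The study profiled liver cells of C57BL/6J mice by BD Rhapsody whole-transcriptome sequencing after collagenase perfusion, and its methods name non-parenchymal cells where the GEO labels name parenchymal ones. The library titled MCD is the only one left for the wild-type mice on normal chow diet (NCD) of the study's methods, and it is called by its title here because that title, the name in the file header and the diet of the methods differ. The HFHC pool holds wild-type mice and Chil1-/- mice (a germline knockout of the gene of the lectin Chi3l1) fed a high-fat, high-cholesterol diet, captured together, and no cell carries a genotype in its table. Feeding lasted 16 weeks in both, and the age of the mice is not given in the sources used here. With 1 library for each condition, an effect of diet cannot be told apart from one of the capture, wild-type and Chil1-/- cells are averaged in the pool, and no difference has a replicate check. Intervals in brackets are 95% intervals that cover counting error only.

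NK cells are cytotoxic lymphocytes that kill stressed, infected or transformed cells by releasing perforin and granzymes, and they circulate through the blood and the liver sinusoids. ILC1 are related cells that stay in the tissue. Both carry the activating receptors NKp46 (encoded by Ncr1) and NK1.1 (Klrb1c). In the mouse liver NK cells are told from ILC1 by the transcription factor Eomes, the integrin CD49b (Itga2) and receptors of the Ly49 family (Klra genes). Many Ly49 receptors sense MHC class I on other cells. ILC1 carry CD49a (Itga1), TRAIL (Tnfsf10), the chemokine receptor CXCR6 and often the interleukin-7 receptor (Il7r).

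Stretches of DNA are printed for 4 genes that the results turn on, each the 120 bases before the transcription start in RefSeq (build GRCm38.p6), read along the gene's strand. Ncr1 (chr7:4337595-4337714, plus strand) is a gene of the gate, and Gzmc (chr14:56234658-56234777, minus strand), a granzyme, had the largest excess in ILC1-type cells (members without Eomes and with Cxcr6 or Il7r) by the smaller of the libraries' ratios with 1 UMI added to each sum, the 3 genes of that split aside. Its place above Tcrg-C4 and Inpp4b rests on that added UMI, since it had no UMI in Eomes-positive cells of the library titled MCD. Capitals mark TGTGGT or its complement ACCACA, the core of the sites that RUNX factors bind.

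Ncr1: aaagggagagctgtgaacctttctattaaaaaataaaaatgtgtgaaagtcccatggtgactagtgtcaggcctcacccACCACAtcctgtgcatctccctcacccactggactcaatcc
Gzmc: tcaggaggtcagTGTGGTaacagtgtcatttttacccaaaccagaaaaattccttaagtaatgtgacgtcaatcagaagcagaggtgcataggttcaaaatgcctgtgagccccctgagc

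Klra8 (chr6:130129899-130130018, minus strand) and Klra4 (chr6:130067272-130067391, minus strand) encode the Ly49 receptors Ly49H and Ly49D, and had the largest excess in Eomes-positive members by the same measure. Capitals mark the longest run of bases that the pair shares, 27 bases, which 2 of the 27025 RefSeq promoters hold.

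Klra8: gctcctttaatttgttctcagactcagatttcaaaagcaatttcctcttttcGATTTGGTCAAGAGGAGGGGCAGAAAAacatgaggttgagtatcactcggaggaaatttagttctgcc
Klra4: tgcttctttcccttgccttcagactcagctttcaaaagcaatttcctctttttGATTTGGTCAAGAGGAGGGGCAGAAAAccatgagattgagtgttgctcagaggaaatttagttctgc

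The windows of Klra8 and Klra4 were 86.0% identical, Klra5 was 72.5% identical to Klra8, and the other Ly49 genes compared (Klra1, Klra3, Klra6, Klra7, Klra9 and Klra10) had between 42.2% and 48.8%, within the range of the genes outside the family (Itga1 43.8%, Ncr1 39.8% and Gzmc 50.8%). Over the 250 bases before the start, TGTGGT on either strand was held by 14.2% of all promoters, by 5 of the 16 genes of an ILC1 list with a promoter (Gzmc, Cxcr3, Il21r, Cd160 and Xcl1) and by 1 of 17 of an NK list (Ly6c2). The T-box core TCACACC, which Eomes and T-bet bind, was held on either strand by 3.31% of all promoters, by Xcl1 of the first list and by Gzmk of the second. The 2 motifs were counted separately, overlaps included, and a match is a description of letters and not of a bound site.

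The gate gave 315 members of 23346 kept cells in the library titled MCD, 1.35% (1.21 to 1.51), and 488 of 19625 in the HFHC pool, 2.49% (2.27 to 2.71). CD3 was the step that removed most cells. Of the cells with at least 2 NK receptor UMIs it took out 910 of 1253 in the library titled MCD and 513 of 1031 in the pool, and the steps on Cd79a, Siglech and Clec4f with Vsig4 took out 28 and 30 cells more. Members held 614531 UMIs in the library titled MCD and 1949961 in the pool, with medians per cell of 1645 UMIs and 1003 genes against 3574.5 UMIs and 1697.5 genes. The same difference in depth was seen in T cells (at least 2 CD3 UMIs and no NK receptor UMI), with medians of 1932 and 3421 UMIs. Shares of cells with a UMI were therefore compared after cells were thinned to 1000 UMIs. Cells under 1000 UMIs were left out of thinned shares. They were 43 of the 315 members of the library titled MCD and 3 of the 488 of the pool. The tables shared 756 cell barcodes, and no member was in both.

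Members close to the limit of the gate were few in the pool. Cells with exactly 2 NK receptor UMIs numbered 66 in the library titled MCD and 17 in the pool, and cells just outside, with 1, numbered 156 and 104. Gzma stood at 4195 CPM (UMIs of a gene per 1000000 summed UMIs) in the cells just inside and at 644 CPM in those just outside in the library titled MCD, and at 835 and 0 CPM in the pool. Eomes was at 147 and 53.0 CPM inside and outside in the library titled MCD, and at 42.5 and 8.21 CPM in the pool. Lyz2, a myeloid gene, was at 4939 CPM inside and 1217 CPM outside in the pool. The 17 cells just inside there held less of the NK genes and more of a myeloid gene than the other members. The library titled MCD had the other order, with Lyz2 at 90.7 CPM inside, 2776 CPM outside and 483 CPM in members with 3 or more NK receptor UMIs. Leaving out all members under 3 NK receptor UMIs left 249 and 471 cells.

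Markers of NK cells and ILC1 were high in the members and low in B cells (at least 2 UMIs of Cd79a, without CD3 and NK receptor UMIs). Prf1, the pore-forming perforin, was at 561 CPM in the library titled MCD and 580 CPM in the pool, against 25.2 and 70.3 CPM in T cells and 2.87 and 4.17 CPM in B cells. Eomes was at 277 and 297 CPM in members, 23.7 and 121 CPM in T cells and 0.48 and 1.60 CPM in B cells. Of members thinned to 1000 UMIs, 41.2% and 43.3% had a UMI of Prf1, against 0.197% and 0.119% of B cells thinned to the same number, whose own median depths were 1363 and 2710 UMIs. Fcer1g, an adaptor of the activating receptors, was at 2350 and 2036 CPM in members, 172 and 96.2 CPM in T cells and 186 and 61.3 CPM in B cells. Of 9 genes that mark ILC2 and ILC3, 5 had no UMI in members of the library titled MCD and 4 in those of the pool, but the list summed to 238 and 235 CPM, of which Gata3, a factor that ILC1 and T cells also use, gave 138 and 143 CPM and Klrg1 96.0 and 87.2 CPM. By Prf1, Eomes and Fcer1g, set beside T cells and B cells only, the members matched the NK part of the name. These genes do not speak for the ILC1 part, whose cells are taken below as members without Eomes.

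T cell receptor genes differed among themselves in the members. Trac, the alpha constant gene, stood at 92.8 CPM in members of the library titled MCD and 18.5 CPM in those of the pool, against 1833 and 1870 CPM in T cells, and 9.21% and 6.15% of members had a UMI of it. In the library titled MCD the 66 cells just inside the gate held 29 of its 57 UMIs (329 CPM), and members with 3 or more NK receptor UMIs were at 53.2 CPM. Trbc1, a beta constant gene, was as high in members, at 412 and 477 CPM, as in T cells, at 456 and 503 CPM, while B cells had 5.25 and 2.57 CPM. Cd5 had 1 UMI in the members of each library, and Cd8a had 0 and 4. Trbc1 shares 34.6% of its 75-base stretches with other transcripts. When cells with any UMI of Trac or Trbc1 were also removed, the members' share was 0.668% and 0.724% of kept cells, against 1.35% and 2.49%.

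Eomes split the members as follows. Eomes-positive cells numbered 86 and 200, cells without Eomes but with a UMI of Cxcr6 or Il7r (called ILC1-type) numbered 100 and 201, and 129 and 87 cells had none of the 3 genes. At 1000 UMIs per cell the Eomes-positive share was 17.6% (13.3 to 22.7) in the library titled MCD and 23.1% (19.4 to 27.1) in the pool, and the ILC1-type share was 28.7% (23.4 to 34.4) and 29.5% (25.5 to 33.8). The intervals of the libraries overlapped for both shares. In all 315 and 488 members, without thinning, the shares were 27.3% and 41.0% Eomes-positive and 31.7% and 41.2% ILC1-type. These were further apart than in the 272 and 485 thinned cells, which leave out members under 1000 UMIs. With cells holding Trac or Trbc1 removed, the thinned shares were 24.6% and 30.9% Eomes-positive and 19.7% and 16.5% ILC1-type, which turned the order of the subsets in both libraries.

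Among B cells thinned alike Eomes was seen in no cell of either library, Cxcr6 in 0.295% and 0.119%, and Il7r in 0.591% and 0.238%. Eomes-positive cells that also had a UMI of Cxcr6 or Il7r were 3 of 86 in the library titled MCD and 27 of 200 in the pool. Cells with none of the 3 genes were a larger share of shallow cells in the library titled MCD, where they made up 72.1% of members under 1000 UMIs, 43.5% of those from 1000 to 2000, 25.8% from 2000 to 4000 and 22.2% above. Their levels of Klra8 and Gzma lay between those of Eomes-positive and ILC1-type cells. Klra8 was at 961 CPM in them in the library titled MCD and 717 CPM in the pool, and Gzma at 6088 and 6126 CPM.

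Of 2706 genes measured in the library titled MCD, the 3 genes of the split included, 310 (11.5%) differed by at least 2-fold between ILC1-type and Eomes-positive cells, 181 (6.69%) being higher and 129 (4.77%) lower in ILC1-type cells. In the pool 527 of 6908 (7.63%) did, with 328 (4.75%) higher and 199 (2.88%) lower. A gene was measured with 30 or more UMIs in both subsets together, and log2 ratios were taken with 1 UMI added to each sum. Over the 2695 genes measured in both libraries, 64 (2.37%) were higher in ILC1-type cells in both, 42 (1.56%) were lower in both and 6 (0.223%) went opposite ways. The log2 ratios of the libraries had a Pearson correlation of 0.681 across these genes, which are not independent replicates. The counts and the correlation include the 3 genes of the split, whose ratios the split itself sets. Klra4 and Klra8, on the Eomes-positive side, and Gzmc and Tcrg-C4, on the ILC1-type side, were past 2-fold by a wide margin in both libraries, as the scatter of the ratios shows.

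**Figure D1:**
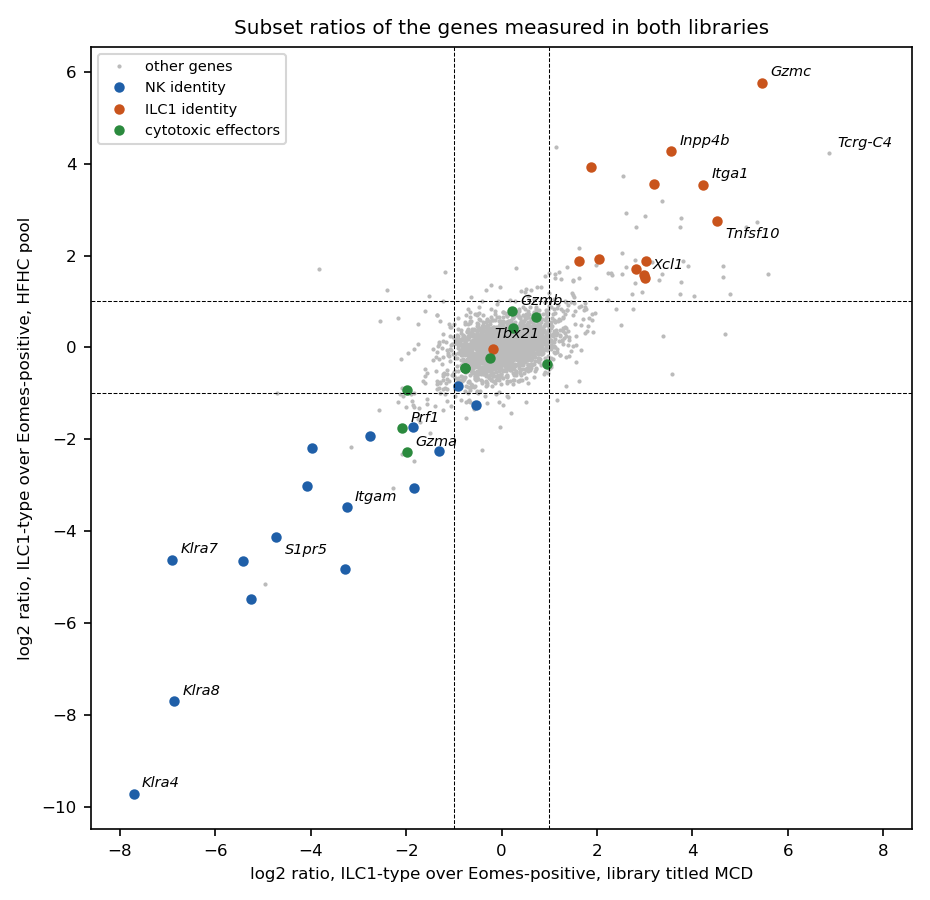
Each point is a gene, with the log2 ratio of ILC1-type over Eomes-positive cells in the library titled MCD on the x axis and in the HFHC pool on the y axis, and dashed lines at 2-fold. Cytotoxic genes that are also in an identity list are drawn with that list, and Klra4 is drawn at −7.71 and −9.71 and Gzmc at 5.46 and 5.77. The positions of Klra4, and of Gzmc on the x axis, rest on the 1 UMI added to a sum of 0.

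Ly49 genes were the sharpest difference. Klra8 was at 1151 CPM in Eomes-positive cells and 4.99 CPM in ILC1-type cells of the library titled MCD, from 236 and 1 UMIs, a ratio of 231-fold (41.0 to 9153). In the pool it was at 1621 and 6.67 CPM, or 243-fold (111 to 663). Klra4 had 213 and 698 UMIs in Eomes-positive cells (1039 and 931 CPM) and none in ILC1-type cells, which makes it at least 69.4-fold and 279-fold higher, with the absent side set to 3 UMIs. Klra7 was at 590 CPM against no UMI in the library titled MCD (at least 39.4-fold) and at 491 against 18.9 CPM in the pool (26.0-fold, 16 to 45.1). Klra9 (Ly49I) differed less, at 673 against 185 CPM and 780 against 92.3 CPM. The Ly49 genes resemble each other, and 19.7% of the 75-base stretches of Klra8 and 12.1% of those of Klra9 occur in other transcripts, so some UMIs could be assigned to the wrong member.

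Single cells carried combinations of Ly49 genes. At least 1 of the 10 Ly49 genes counted was seen in 75 of 86 Eomes-positive cells of the library titled MCD, 87.2% (78.3 to 93.4), and in 184 of 200 of the pool, 92.0% (87.3 to 95.4). Klra8 had a UMI in 0.229% and 0.237% of B cells. At least 3 were seen in 58.1% and 65.0% of Eomes-positive cells, and the most in 1 cell was 5 and 6. In ILC1-type cells at least 1 was seen in 16% and 11.9%, and the mean number per cell was 0.20 and 0.174 against 2.57 and 2.89 in Eomes-positive cells. CD3-positive cells with NK receptors, a population left out by the gate, lay between, with at least 1 in 32.2% and 52.8%. These shares were not thinned, and the Eomes-positive and ILC1-type cells had medians of 2046 and 1769.5 UMIs in the library titled MCD and 3277.5 and 4077 UMIs in the pool.

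**Figure D2:**
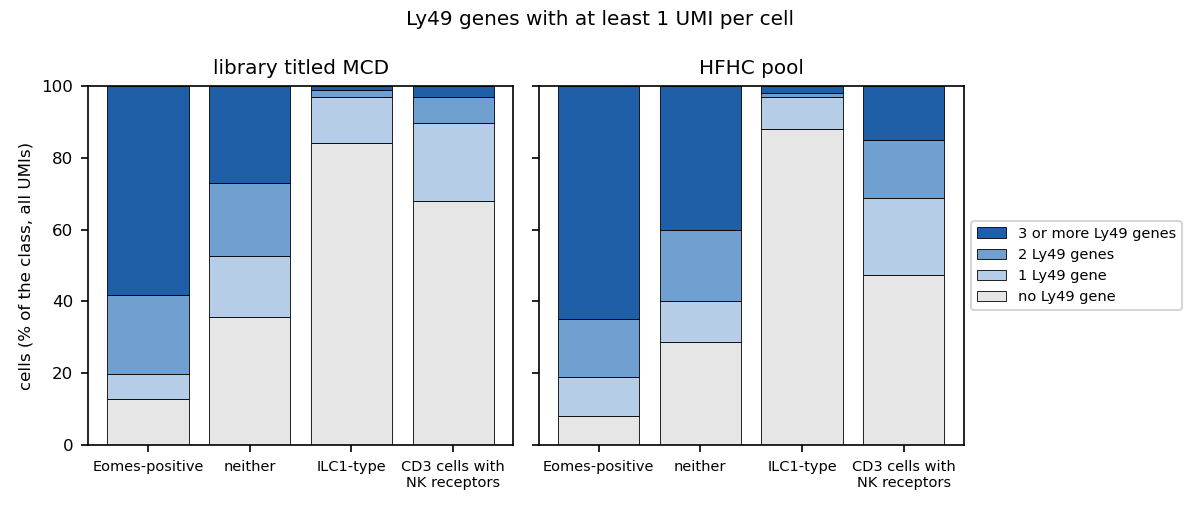
Stacked bars give the percentage of cells of each class (y axis) with no, 1, 2 and 3 or more of the 10 Ly49 genes, for the library titled MCD (left) and the HFHC pool (right). Cells with 3 or more make up 58.1% and 65.0% of Eomes-positive cells, and cells with none make up 84.0% and 88.1% of ILC1-type cells.

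The NK list as a whole was lower in ILC1-type cells. Of 16 measured genes of the list in the library titled MCD 14 were at least 2-fold lower in ILC1-type cells and none was higher, and of 19 in the pool 18 were lower, against 4.77% and 2.88% of all genes. The medians were −3.63 and −3.06 on the log2 scale, or −3.58 and −3.10 with no UMI added and the genes absent from a subset (4 and 2) set to 3 UMIs, against medians of 0.03 and 0.03 over all genes. The list was drawn up with earlier results of these data known, so its direction is a description. The exceptions were Ly6c2, at −0.92 and −0.84, and in the library titled MCD Ccr2, at −0.54. S1pr5, the sphingosine receptor with which NK cells leave tissues, was at 259 against 4.99 CPM and 175 against 8.90 CPM. Itgam, the integrin CD11b of mature NK cells, was 10.4-fold (5.27 to 23.5) and 11.4-fold (7.99 to 16.9) higher in Eomes-positive cells. Zeb2, a transcription factor of NK maturation, was at 229 against 9.98 CPM and 228 against 48.9 CPM. The chymase gene Cma1 had 43 and 145 UMIs in Eomes-positive cells against 0 and 6 in ILC1-type cells. The 8 monocyte and neutrophil markers summed to 3337 CPM in Eomes-positive and 913 CPM in ILC1-type cells of the library titled MCD. In each subset there 1 of them was at 0. Of 5 measured there 4 were at least 2-fold lower in ILC1-type cells and none was higher, against 4.77% of all genes lower. The part of these markers in the values above was not tested. In the pool they summed to 1131 and 724 CPM with 2 and 1 at 0, 721 of the 848 UMIs in Eomes-positive cells were of Ccr2, which is also in the NK list, and of 4 measured markers 2 were higher and 2 lower in ILC1-type cells.

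Per cell, the maturation integrin Itgam without Cd27 was seen in 44.2% of Eomes-positive cells of the library titled MCD and 46.0% of those of the pool, and Cd27 without Itgam in 5.81% and 13.5%. In ILC1-type cells the order was turned, with Itgam alone in 7% and 6.97% and Cd27 alone in 19.0% and 29.9%. The integrins that define the subsets on the cell surface separated the same way. Itga1 without Itga2 was seen in 44.0% and 41.3% of ILC1-type cells and in 1.16% and 3.50% of Eomes-positive cells, and Itga2 without Itga1 in 27.9% and 51.5% of Eomes-positive cells and in 6% and 9.95% of ILC1-type cells. These shares are from all UMIs of a cell, and B cells had a UMI of Itgam in 4.04% and 4.03% and of Itga1 in 1.60% and 2.01%.

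The ILC1 list was higher in ILC1-type cells for 12 of 13 measured genes in the library titled MCD and 20 of 21 in the pool, with medians of 3.01 and 2.60, or 3.2 and 2.7 with no UMI added and absent genes (1 and 0) set to 3 UMIs. Of all genes 6.69% and 4.75% were higher in ILC1-type cells. The exception was Emb, at −0.17 and −0.03. Itga1 was at 14.6 CPM in Eomes-positive and 359 CPM in ILC1-type cells of the library titled MCD and at 24.0 and 295 CPM in the pool, or 24.5-fold (8.07 to 122) and 12.3-fold (7.62 to 21.0) higher. Tnfsf10, the death ligand TRAIL, was at 4.88 and 220 CPM, from 1 and 44 UMIs, and at 42.7 and 294 CPM in the pool, 6.88-fold (4.75 to 10.3). Inpp4b, a phosphatase of phosphoinositide signalling, was at 14.6 and 224 CPM and at 24.0 and 487 CPM. Tmem176b, a membrane channel gene, was 10.6-fold (4.59 to 29.9) and 12.3-fold (7.88 to 20.1) higher. Cd200r1, an inhibitory receptor for CD200, was at 5.34 and 117 CPM in the pool, and in the library titled MCD it rested on 1 and 10 UMIs.

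Gzmc was carried by few cells. It had no UMI in Eomes-positive and 42 in ILC1-type cells of the library titled MCD, at least 14.3-fold higher, and 3 and 260 UMIs in the pool, 72.3-fold (24.5 to 353). It was seen in 14.0% and 21.9% of ILC1-type cells, with up to 40 UMIs in 1 cell of the pool, so a minority of ILC1-type cells held its UMIs. Tcrg-C4, a gamma constant gene of the T cell receptor, was seen in 50.0% and 68.2% of ILC1-type cells, at 559 and 476 CPM, against 0 and 24.0 CPM in Eomes-positive cells, 168 and 78.1 CPM in T cells and 2.39 and 1.60 CPM in B cells. Trdc, the delta constant gene, went the other way, at 137 and 121 CPM in Eomes-positive and 34.9 and 21.1 CPM in ILC1-type cells. Prrt1 and Cited4, which were among the 10 genes with the largest ILC1-type excess, stood at 145 against 9.76 CPM and 190 against 19.5 CPM in the library titled MCD, and at 132 against 13.3 CPM and 155 against 20.0 CPM in the pool.

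**Figure D3:**
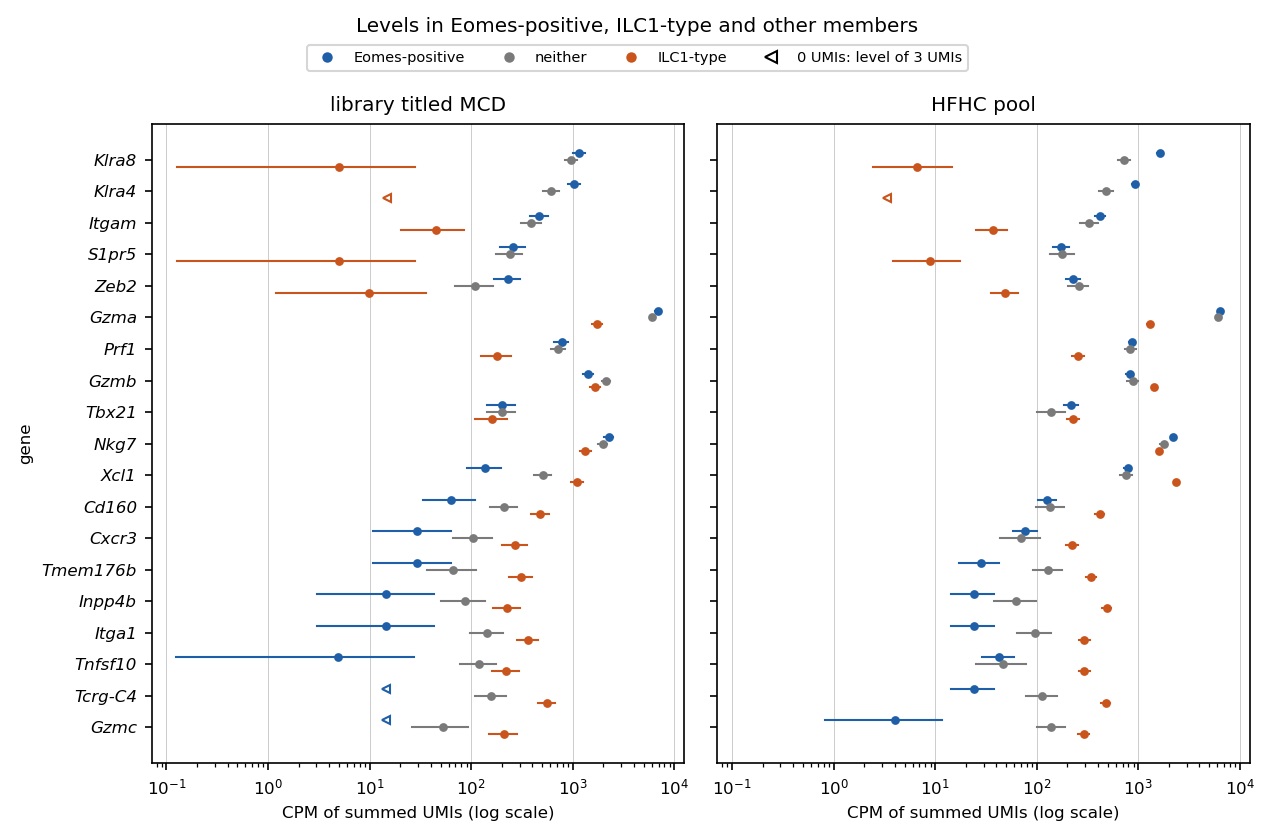
Levels of genes (y axis) as CPM of summed UMIs (x axis, log scale) in Eomes-positive, ILC1-type and other members, with exact Poisson 95% intervals, for the library titled MCD (left) and the HFHC pool (right); triangles stand at 3 UMIs where none was seen. The grey points of members with none of the 3 genes lie nearer to the blue Eomes-positive than to the ILC1-type points for Klra8, Itgam, Gzma and Prf1 on the log axis, and between the subsets for Itga1, Inpp4b and Gzmc.

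Endothelial genes moved with the split in the library titled MCD. Of 6 measured endothelial markers 5 were at least 2-fold higher in ILC1-type cells there and 4 in the pool, against 6.69% and 4.75% of all genes, and the summed level of the list was 298 CPM in Eomes-positive and 2160 CPM in ILC1-type cells in the library titled MCD and 370 and 690 CPM in the pool. The list holds 8 markers, and none was at 0 in ILC1-type cells of either library. Sparc and Oit3, which were also among the 10 genes with the largest ILC1-type excess, were seen in 8% and 7% of ILC1-type cells of the library titled MCD, and the highest cell held 16 of the 39 UMIs of Sparc. The 14 T cell markers summed to 712 CPM in Eomes-positive and 1841 CPM in ILC1-type cells of the library titled MCD, with 8 and 6 of them at 0, and to 870 and 1277 CPM in the pool, with 5 at 0 in each. The part of these markers in the ILC1-type values was not tested. In an alternative, cells with at least 2 UMIs of Ms4a1 and Cd79b, of Stab2 and Clec4g, or of S100a8, S100a9 and Retnlg were left out. The medians were then −3.39 and −3.10 for the NK list and 3.03 and 2.64 for the ILC1 list. That step used no T cell, Kupffer cell or hepatocyte marker.

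Cytotoxic genes divided between the subsets, with list medians of −0.02 and −0.24. Prf1 was 4.32-fold (2.99 to 6.39) and 3.39-fold (2.91 to 3.96) higher in Eomes-positive cells, at 776 against 180 CPM and 867 against 256 CPM. Gzma, a tryptic granzyme, was 3.94-fold (3.50 to 4.44) and 4.83-fold (4.53 to 5.16) higher, at 6839 against 1736 CPM and 6307 against 1305 CPM. It was seen in 98.8% and 88.5% of Eomes-positive cells and in 31.0% and 29.4% of ILC1-type cells, against 0.458% and 1.30% of B cells. Gzmb, the granzyme that cleaves caspases, did not follow, with 1415 against 1651 CPM and 822 against 1426 CPM. Fasl was at 82.9 against 165 CPM in the library titled MCD, a fold of 0.504 (0.263 to 0.931) from 17 and 33 UMIs. In the pool it was at 177 against 138 CPM, or 1.29-fold (0.9997 to 1.66), an interval that includes 1. Nkg7, a granule protein, was at 2254 against 1327 CPM and 2201 against 1606 CPM. The granzyme B inhibitor Serpinb9 was at 839 against 210 CPM and 548 against 287 CPM.

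Activating receptors and adaptors went both ways. The list holds Ncr1, Klrb1c and Klre1, which the gate required. Of 19 measured genes 2 were higher and 2 lower in ILC1-type cells of the library titled MCD, and of 22 in the pool 3 were higher and 3 lower, with medians of 0.03 and −0.17, against 11.5% and 7.63% of all genes past 2-fold. Klrk1 (NKG2D) was at 795 and 938 CPM in Eomes-positive and ILC1-type cells of the library titled MCD and at 1070 and 1032 CPM in the pool. The receptors with the largest ILC1-type excess were Cd160, at 63.4 against 479 CPM and 127 against 416 CPM, and Cd226 (DNAM-1), at 43.9 against 274 CPM and 68.0 against 288 CPM. Klri2 was lower, at 668 against 185 CPM and 670 against 271 CPM. Outside the Ly49 family the inhibitory receptor Klrb1b (NKR-P1D) was at 400.0 against 1043 CPM and 281 against 949 CPM. The inhibitory receptor Klrc1 (NKG2A) was at 249 against 733 CPM and 376 against 653 CPM. Klrg1, a receptor of mature NK cells, was at 127 against 9.98 CPM and 143 against 16.7 CPM. Lag3 had 55 UMIs in ILC1-type and 3 in Eomes-positive cells of the pool.

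Of 17 measured homing genes in the library titled MCD 3 were higher and 5 lower in ILC1-type cells, and of 19 in the pool 3 were higher and 9 lower, with medians of −0.40 and −0.78, against 6.69% of all genes higher and 4.77% lower in the first library and 4.75% and 2.88% in the pool. Cxcr3, a receptor for interferon-induced chemokines, was at 29.3 CPM in Eomes-positive and 269 CPM in ILC1-type cells of the library titled MCD and at 77.4 and 222 CPM in the pool. Rgs1, which damps chemokine receptor signals, was at 127 and 534 CPM and at 591 and 2240 CPM. S1pr1 was at 90.7 and 14.5 CPM in the pool, and Cxcr4 was at 302 and 64.8 CPM and at 256 and 127 CPM. The integrin chain Itgal, which most lymphocytes carry, was nearly level, at 1029 and 1098 CPM and at 771 and 736 CPM. Cd69, often used as a marker of residency, was not higher in ILC1-type cells, at 92.7 and 54.9 CPM and at 235 and 104 CPM.

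Of transcription factors known from both subsets, Tbx21 and Ets1 differed by less than their counting intervals. Tbx21 (T-bet) was at 200 and 160 CPM in Eomes-positive and ILC1-type cells of the library titled MCD and at 217 and 227 CPM in the pool. Ets1 was at 722 and 698 CPM and at 736 and 783 CPM, and Id2, which all innate lymphoid cells need, was 1.51-fold (1.30 to 1.76) and 1.33-fold (1.21 to 1.46) higher in ILC1-type cells. The factors past 2-fold in both libraries were Zeb2, Klf2 and Irf8, higher in Eomes-positive cells, and Rora and Maf, higher in ILC1-type cells. Irf8 was 7.0-fold (4.59 to 11.1) and 3.80-fold (3.17 to 4.58) higher in Eomes-positive cells. Maf was at 97.6 and 703 CPM and at 152 and 407 CPM. Zfp683 (Hobit), a residency factor of ILC1, rested on few UMIs, with 3 in Eomes-positive and 41 in ILC1-type cells of the pool and 0 and 3 in the library titled MCD.

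Among cytokines Xcl1, the chemokine that draws type 1 dendritic cells, was at 137 and 1113 CPM in Eomes-positive and ILC1-type cells of the library titled MCD and at 790 and 2359 CPM in the pool. Ccl5, the most abundant of the list, was at 10922 and 6256 CPM in the library titled MCD and at 8646 and 5301 CPM in the pool. Ifng was at 216 and 166 CPM in the pool and rested on 10 and 6 UMIs in the library titled MCD. The 11 genes of MHC class I and its processing had medians of 0.45 and 0.28 in the ILC1-type ratio, against 0.03 and 0.03 over all genes, and 2 of them (Tap2 and Nlrc5) passed 2-fold in the library titled MCD and none in the pool, against 11.5% and 7.63% of all genes. Cells with at least 2 UMIs of 10 mitotic genes were 2.21% (0.814 to 4.74) and 2.06% (0.993 to 3.76) of members at 1000 UMIs, and 2.54% and 5.53% without thinning. The cell cycle list summed to 3406 CPM in members of the library titled MCD and 2332 CPM in those of the pool, with a median of −0.53 and none of 9 genes past 2-fold, against 5.98% of all genes. Its median was −0.17 in Eomes-positive cells, −0.68 in ILC1-type cells, −0.70 in T cells and 0.42 in B cells.

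Between the libraries 163 of 4530 genes with at least 100 UMIs (3.60%) were at least 2-fold higher in members of the pool and 108 (2.38%) were lower, 5.98% together. In T cells 9.05% of 8860 genes passed (5.87% higher and 3.18% lower), in B cells 9.19% of 6443 (5.20% and 3.99%), and in CD3-positive cells with NK receptors 7.39% of 5709 (3.96% and 3.43%). With 30 UMIs asked for, 12.0% of 5097 genes passed in Eomes-positive cells (7.22% higher and 4.83% lower) and 13.3% of 5760 in ILC1-type cells (7.05% and 6.27%). Classes differ in depth and in the genes that reach the minimum, so no order is read from these shares. With 5 UMIs added the split was 116 higher and 121 lower, against 163 and 108 with 1 UMI. The NK list had a median log2 ratio of −0.08 over 18 genes, and the ILC1 list one of 0.48 over 18 genes, of which 5 were higher (Ltb, Rgs1, Xcl1, Inpp4b and Cd200r1) and Socs2 was lower.

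Immediate-early and heat shock genes had a median of 1.33 over 23 genes in members, and 14 of them were at least 2-fold higher in the pool against 3.60% of all genes. Fos, a transcription factor made within minutes of stimulation, was at 127 CPM in the library titled MCD and 847 CPM in the pool (6.67-fold, 5.32 to 8.49), and Jun, its partner, at 161 and 982 CPM (6.10-fold, 4.98 to 7.54). Nr4a1 (Nur77), which antigen or cytokine signals induce, was at 43.9 and 207 CPM. The heat shock protein Hspa1b was at 13.0 and 302 CPM, from 8 and 589 UMIs, and Hspa1a, whose sequence it shares in part, at 13.0 and 166 CPM. The same list had medians of 0.96 in T cells, with 12 of 25 higher, and 0.74 in B cells, with 10 of 22 higher. Fos had log2 ratios of 2.40 and 2.42 there against 2.72 in members. In CD3-positive cells with NK receptors the list had a median of 1.46, with 12 of 23 higher, and Fos was at 3.41. The shift was thus not largest in the members. Within the members the list was higher in both subsets, with medians of 0.98 in Eomes-positive and 1.31 in ILC1-type cells.

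Chemokines and cytokines had a median of 0.98 over 10 genes in members and 0.99 over 15 genes in T cells. In CD3-positive cells with NK receptors the median was 1.11 over 10 genes. No difference between these classes was tested. Ccl3 was at 254 and 869 CPM in members (3.42-fold, 2.90 to 4.06), and its log2 ratio was 1.77 in members and 4.43 in T cells. Ccl4 was at 342 and 1051 CPM, with ratios of 1.61 and 4.18. Ifng, the cytokine of both subsets, was at 35.8 and 179 CPM (5.0-fold, 3.25 to 8.08), with a ratio of 2.26 in members and 2.49 in T cells. Xcl1 was at 581 and 1509 CPM in members (2.60-fold, 2.33 to 2.91), and its ratio in T cells was −0.17. Ltb had ratios of 1.69 and 1.22. In the other direction Cxcl9 was at −3.27, where 73 of its 90 UMIs in the library titled MCD were in 1 cell. Its ratio was −1.51 without the highest cell of each library. Cxcl10 was at −1.48, from 57 UMIs in the library titled MCD and 65 in the pool. Of the 57, 52 were in Eomes-positive and 1 in ILC1-type cells, so its ratio does not stand for all members.

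Cytotoxic effector genes were set beside those of both T cells without NK receptors and CD3-positive cells with them. Prf1 was at 561 and 580 CPM in members (1.03-fold, 0.915 to 1.17) and had a log2 ratio of 1.47 in T cells. Gzma was at 4919 and 3972 CPM, a log2 ratio of −0.31, against 2.35 in T cells, and Ccl5 at −0.42 against 2.32. Gzmb was at 1736 and 1109 CPM, a ratio of −0.65. The list had a median of 0.03 over 13 genes in members and 0.27 over 14 genes in T cells, and the only member gene of it past 2-fold was Ctsd, the lysosomal cathepsin D, at 53.7 and 327 CPM, with ratios of 2.12 in T cells and 2.04 in B cells as well. In CD3-positive cells with NK receptors the list had a median of −0.05 over 13 genes, and Prf1 was at 0.49, Gzma at −1.41 and Ccl5 at 0.99. Differences between these classes were not tested. None of the 21 measured activating receptors and adaptors, the genes of the gate included, passed 2-fold between the libraries, which is near the share over all genes of 5.98%.

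**Figure D4:**
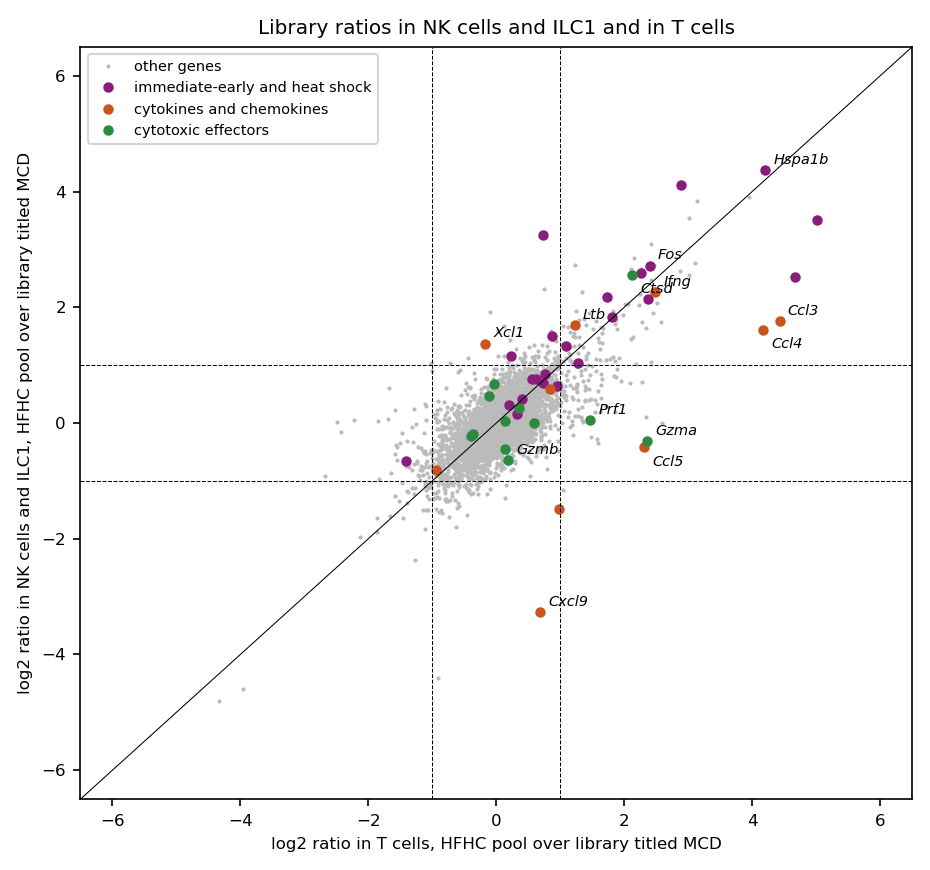
Each point is a gene, with its log2 ratio between the libraries (positive where the pool is higher) in T cells on the x axis and in NK cells and ILC1 on the y axis, dashed lines at 2-fold and a solid line where both are equal. Fos and Hspa1b lie near the line of equality, whereas Gzma, Prf1, Ccl5, Ccl3 and Ccl4 lie well to the right of it and Xcl1 above it.

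Among genes with at least 10 UMIs in each library, the 10 with the highest ratios in members were Gm9844, Ppp1r15a, Pld3, Vps37b, Rps19, Fos, Rpsa, Tnfaip3, Jun and Ctsd, with log2 ratios from 2.57 to 3.84. All of them were above 2 in T cells as well, and all but Tnfaip3, at 0.55, were above 2 in B cells. Gm9844 shares 46.2% of its 75-base stretches with other transcripts, so its UMIs may belong in part to them. Ppp1r15a, which relieves the block of translation after stress, was at 3.10, and Tnfaip3 (A20), an inhibitor of NF-kappaB signals, at 2.66. Among transcription factors Tcf7 (TCF-1), a factor of NK development, was at 104 and 267 CPM (2.57-fold, 1.98 to 3.38), and Bhlhe40 at 86.2 and 321 CPM. Rgs1 was at 291 and 1367 CPM, with a log2 ratio of 2.22 in members and 2.25 in T cells.

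Among genes with at least 10 UMIs in each library, the 10 with the lowest ratios were S100a9, S100a8, Clu, Cxcl9, Tinagl1, Serpinb9b, Rpl13a-ps1, BC037034, Pck1 and Ifitm2, with log2 ratios from −4.81 to −1.79. Retnlg, a neutrophil gene below that minimum, had 198 UMIs in the library titled MCD and 3 in the pool. S100a9 and S100a8 are neutrophil genes too, and they were at −4.81 and −4.60 in members, −4.33 and −3.96 in T cells and −3.41 and −3.50 in B cells. Without the highest cell of each library the members' values were −6.01 and −5.83. The summed level of the 8 monocyte and neutrophil markers was 2257 CPM in members of the library titled MCD and 1105 CPM in those of the pool, with 0 and 1 of them absent. B cell markers summed to 635 and 1484 CPM in members, endothelial markers to 1163 and 669 CPM, Kupffer cell markers to 249 and 125 CPM and hepatocyte markers to 2255 and 2095 CPM, and the part of these other-cell genes in the differences between the libraries was not tested. Of the 126 UMIs of Clu in the library titled MCD 117 were in 1 cell, and without the highest cell of each library its ratio was −0.99. Serpinb9b, a serpin of the granzyme inhibitor family, was the gene of this set least seen outside the members. It was at 130 and 25.1 CPM in members, at 185 and 48.0 CPM in Eomes-positive cells and without a UMI in ILC1-type cells of both libraries, and had 1 UMI in T cells, none in B cells and 3 and 7 UMIs in CD3-positive cells with NK receptors. It was 5.18-fold (3.59 to 7.55) higher in the library titled MCD and was seen in 9.84% and 4.30% of members although the pool was deeper.

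Metabolic lists were compared between the libraries as well. Oxidative phosphorylation had a median of −0.18 over 23 genes and glycolysis one of 0.17 over 12, and no gene of either passed 2-fold, near the 5.98% of all genes. Lipid handling had a median of 0.37 over 8 genes, with Abca1, the cholesterol exporter, past 2-fold at 21.2 and 63.1 CPM. Of interferon-stimulated genes Bst2 was lower, at −1.04, as it was in T cells and B cells, at −1.03 and −1.09. Glucocorticoid and stress responsive genes had a median of −0.25 over 8 genes, with Tsc22d3 (−1.32) and Fkbp5 (−1.31) past 2-fold lower and Dusp1 (1.5) past 2-fold higher, against 5.98% of all genes past 2-fold. Their ratios in T cells were −1.05, −0.79 and 0.88. Chil1, the gene that the knockout in the pool lacks, had 14 UMIs in members of the library titled MCD and 1 in those of the pool. Together these are under the minimum of 100 UMIs, and the pool holds wild-type cells too. The study states that public single-cell data show its transcripts mainly in neutrophils. The neutrophil gene Retnlg had 198 and 3 UMIs in the same members. The cause of the Chil1 counts was not tested.

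**Figure D5:**
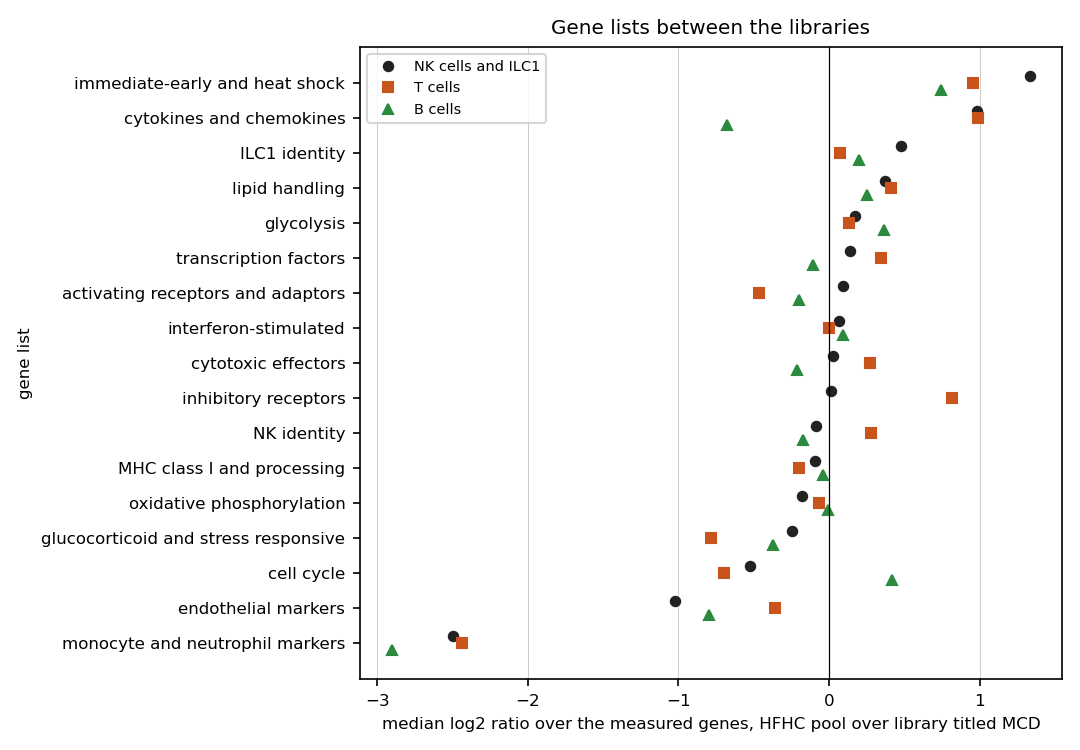
Median log2 ratio between the libraries (x axis, positive where the pool is higher) of the measured genes of each list (y axis) in NK cells and ILC1, T cells and B cells. The median of immediate-early and heat shock genes is above 0 in the 3 classes (1.33, 0.96 and 0.74), and that of monocyte and neutrophil markers is below −2 in each. The list named inhibitory receptors holds Klra4 and Klra8 among its Ly49 genes, and its name does not describe each of its genes.

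Compared with CD3-positive cells that carried NK receptors in the same library (765 and 451 cells), members had 11 of 14 measured genes of the NK list at least 2-fold higher in the library titled MCD and 11 of 17 in the pool, with medians of 2.64 and 2.15. Of all genes 5.87% of 4295 passed 2-fold in the library titled MCD (3.26% higher and 2.61% lower), and 4.77% of 5886 in the pool (2.80% and 1.97%). The gate did not use the genes of the NK list. That list was drawn up with earlier results of these data known, so its direction here is a description as well. The ILC1 list had medians of −0.43 and 0.24 in that comparison, with 1 of 17 and 3 of 20 genes higher and 5 and 2 lower. Cytotoxic genes were higher in members for 5 of 13 and 6 of 13, and activating receptors and adaptors, which include the genes of the gate, for 8 of 20 and 10 of 20.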

How the data were processed

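Single liver cells had been captured and sequenced by the authors with BD Rhapsody, and the deposited tables hold UMI counts per cell and gene after error correction by the BD pipeline (version 1.10.1, per the file headers). Mouse build GRCm38 and the GENCODE annotation vM19 are those named in the sources. The authors' Seurat normalisation was not used. Cells with 200 to 4000 genes and at most 25% mitochondrial UMIs were kept. Limits that leave out cells lying exactly on them would keep 23312 cells of the library titled MCD, which is the number the study gives for its NCD livers, and 19599 of the HFHC pool, more than the study gives for its wild-type and knockout HFHC livers together. No doublet caller was run. The Sample-Tag library was not analysed here. Some genes of the lists are not reported here.

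UMIs were summed per class and library and scaled to CPM. Log2 ratios had 1 UMI added to each sum, for genes with at least 100 UMIs (libraries) or 30 UMIs (subsets), and a ratio of 2-fold or more was counted. Each condition has a single library, so no test could be run. Intervals are exact Poisson (levels) or exact Clopper-Pearson binomial (shares) at 95% and cover counting error only. Those of ratios are the binomial interval of one side's part of the UMIs, turned into a ratio. A gene without a UMI was set to 3 UMIs for bounds. Shares were compared in cells thinned to 1000 UMIs (seed 7), and cells with fewer UMIs were left out of them. The counting step was tested on simulated data. Named genes are those of the gate, of the lists and, for each ratio, the 10 highest and 10 lowest (between subsets, by the smaller of the libraries' ratios). The members and lists were chosen with earlier results of these data known. Alternatives changed the limits on cells, the gate, the markers of other cell types, the thinning, the UMI minimum, the UMIs added and the scaling. Promoters came from RefSeq (GRCm38.p6), matching 17 of the 20 NK list genes and 16 of the 21 ILC1 list genes. Stretches of 75 bases shared between transcripts were counted in another GENCODE release than the one used for counting. Python 3.11.15, numpy 2.4.6, scipy 1.17.1 and matplotlib 3.10.9 were used.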

Additional observations from a re-analysis of the deposited data

Results flagged for a closer look

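The gate was also met by cells that the limits on cells had left out. In the library titled MCD 5 of the 1054 cells with more than 25% mitochondrial UMIs met it (0.474%), and in the HFHC pool 5 of the 814 cells with more than 4000 genes did (0.614%). In the pool 2 of the 247 cells with more than 25% mitochondrial UMIs (0.810%) and 1 of the 915 cells with under 200 genes (0.109%) met it too. The shares in kept cells were 1.35% and 2.49%.

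Genes that were at least 2-fold apart between ILC1-type and Eomes-positive cells in opposite directions in the libraries numbered 6 of 2695 (0.223%), and the difference between the libraries was not tested. Lyz2 had a log2 ratio of −3.82 in the library titled MCD and 1.71 in the pool, and 1 cell held 154 of its 201 UMIs in Eomes-positive cells of the former and 1 cell 179 of its 227 UMIs in ILC1-type cells of the latter. Plac8 was at −2.41 and 1.25, Ccl6 at −1.23 and 1.0, and Scd1 at −1.52 and 1.11. Slfn5 was at −1.19 and 1.65, with 40 of its 41 UMIs in Eomes-positive cells of the library titled MCD in 1 cell, and Wasl at 1.16 and −1.15.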

How the results depend on the processing

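No paired analysis was possible because each condition has 1 library. Of 60 values of shares under an alternative 25 moved by more than their interval, of 53 counts of genes 7 moved by over 1.5 times, and of 815 list medians 36 moved. Of 894 values of named genes 106 moved and 7 changed direction. The causes were not tested.

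Members were 1.58% of kept cells in the library titled MCD with at most 10% mitochondrial UMIs and 1.04% with no limits on cells. There they were 1.07% with at least 3 NK receptor UMIs. They were 1.19% both with no UMI of Clec4f and Vsig4 and without cells holding the B cell, endothelial or neutrophil markers named above. In the pool they were 2.18% with no UMI of Clec4f and Vsig4. With no UMI of Trac and Trbc1 members were 0.668% and 0.724%, Eomes-positive cells 24.6% and 30.9% of them, and ILC1-type cells 19.7% and 16.5%. With the gate applied to thinned cells, an alternative chosen after seeing the data, members were 1.69% and 3.29%. These are shares of the kept cells with enough UMIs to be thinned, not of all kept cells. Thinning and the loss of shallow cells therefore cannot be told apart in them. Without thinning Eomes-positive cells were 27.3% and 41.0% and ILC1-type cells 41.2% in the pool, and at 500 UMIs they were 11.5% and 11.3%, and 18.6% and 21.2%. ILC1-type cells by Cxcr6 alone were 20.6% and 17.9%, and by Il7r alone 14.3% and 17.9%.

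Genes past 2-fold between the libraries numbered 119 without Trac and Trbc1, and 823 with a minimum of 30 UMIs. Between the subsets they numbered 122 and 291 without Trac and Trbc1, 64 and 169 with a minimum of 100 UMIs, and 203 in the library titled MCD with subsets taken from thinned cells. Fewer cells or genes entered each of these except the minimum of 30 UMIs. With 5 UMIs added 116 genes were higher and 121 lower between the libraries.

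Direction changed for Ccl6 in the pool without the upper limit on genes and with no limits on cells (−2.14 in both), for Lyz2 (−0.40) and Plac8 (−0.15) in the pool with no UMI of Clec4f and Vsig4, and for Slfn5 in the library titled MCD with the mean of each cell's CPM (0.61). Leaving out each gene's highest cell, chosen after seeing the data, gave Slfn5 2.94 in the library titled MCD and Lyz2 −0.23 in the pool.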
